A study of Mus musculus with 12 samples.

Results

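The 40 genes described here encode proteins of the cell division cycle and were found by symbol among the 23667 genes of a table of TPM values, which correct abundance for transcript length and sum to 1 common total per library. Of these, 17 act at the G1/S transition or in S phase, 23 act in G2 or mitosis, and all 40 were among the 13886 genes tested, which had to reach 1 TPM in 3 or more of the 12 libraries. RNA-seq of polyadenylated RNA was run on mouse mammary tumours of the carcinoma line 4T1, with 3 libraries, labelled as different tumours, in each of 4 groups. KO-ICB tumours carried cells depleted of TREX1, the exonuclease that clears cytosolic DNA, by CRISPR-Cas9 (labelled TREX1 KO), in mice that received anti-PD1 (200 ug) together with anti-CTLA4 (100 ug), dosed 3 times weekly over 1 week. KO-IgG tumours carried the depleted cells in mice given matched isotype antibodies, CTRL-ICB tumours carried control cells in mice given the same checkpoint antibodies, and CTRL-IgG tumours carried control cells in mice given the isotype antibodies. The depletion concerns the 4T1 cells, while host cells of the tumour keep their own Trex1, and whether the depleted cells were 1 clone, and the strain and age of the mice, were not stated in the labels. The comparisons ask whether proliferation transcripts differ with TREX1 depletion, with checkpoint antibodies, and between the S phase and the mitotic side of the cycle.

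Progress through the cell cycle is driven by cyclin-dependent kinases whose cyclins are made and destroyed in turn. E2F factors switch on genes for cyclin E and for the replication machinery before S phase, and later the MuvB core with B-MYB and FOXM1 switches on genes for cyclin B, spindle motors and checkpoint kinases, whose promoters often hold NF-Y boxes and a cell cycle homology region (CHR). In a tumour these transcripts come from every dividing cell, which includes carcinoma cells and dividing leukocytes, so in RNA from a whole tumour fewer cycling cells and less RNA per cycling cell cannot be told apart.

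The promoters of these genes are shown because the classes differ in the share of members that hold each motif, though single promoters need not show the split. Of the 40 members, 32 matched the RefSeq promoter table of GRCm38.p6 (250 bases before to 50 bases after each start), that is, all but Tpx2, Mcm4, Aurkb, Gins2, Foxm1, Ccne2, Ccna2 and Kif20a. The CHR was searched as TTTGAA and, in its other form, TTCGAA, the NF-Y box as CCAAT, and the E2F-type motif as GCGGGAA, as GGCGGGA and as TTTGGCGC, all on both strands, and the first pair of E2F forms can overlap at 1 site. The lines below give the 120 bases before the start, on the gene's own strand, with matches in capitals, for the 3 members of each class with a promoter and the smallest p in the comparison that held most members at an unadjusted p under 0.05 (ICB against IgG, since no member passed an adjusted threshold), and for Cdk1, added after its matches were seen.
Ube2c: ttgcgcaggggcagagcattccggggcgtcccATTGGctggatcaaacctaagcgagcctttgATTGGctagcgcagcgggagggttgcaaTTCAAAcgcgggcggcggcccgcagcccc
Top2a: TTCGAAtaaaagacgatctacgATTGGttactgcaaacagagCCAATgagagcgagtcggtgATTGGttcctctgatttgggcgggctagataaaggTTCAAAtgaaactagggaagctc
Cdk1: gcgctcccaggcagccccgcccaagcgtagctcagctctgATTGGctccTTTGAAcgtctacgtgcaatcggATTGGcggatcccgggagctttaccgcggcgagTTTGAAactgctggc
Cenpe: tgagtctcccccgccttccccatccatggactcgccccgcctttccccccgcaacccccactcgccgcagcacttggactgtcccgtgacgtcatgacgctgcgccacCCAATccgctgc
Uhrf1: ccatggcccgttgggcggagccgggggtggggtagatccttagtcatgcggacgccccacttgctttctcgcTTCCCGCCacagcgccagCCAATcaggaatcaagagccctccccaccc
Mcm2: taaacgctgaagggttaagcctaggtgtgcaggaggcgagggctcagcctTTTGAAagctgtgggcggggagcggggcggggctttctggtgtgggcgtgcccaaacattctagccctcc
Mcm3: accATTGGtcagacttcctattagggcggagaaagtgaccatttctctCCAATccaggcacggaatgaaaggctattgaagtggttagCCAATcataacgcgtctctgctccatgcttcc
The windows lie at chr2:164769809-164769928 (Ube2c, plus strand), chr11:99024190-99024309 (Top2a, minus strand), chr10:69352913-69353032 (Cdk1, minus strand), chr3:135212443-135212562 (Cenpe, plus strand), chr17:56303217-56303336 (Uhrf1, plus strand), chr6:88898781-88898900 (Mcm2, minus strand) and chr1:20820313-20820432 (Mcm3, minus strand) of GRCm38.p6. Ube2c, Top2a and Cdk1 each held a CHR in the last bases before the start (first base at -29, -23 and -15), with NF-Y boxes upstream of it. Uhrf1 held an overlapping pair of E2F forms (first bases at -48 and -47) and an NF-Y box at -30. In Mcm3 the E2F forms lay after the start, and in Cenpe the only match of any motif in these 120 bases was 1 NF-Y box at -12. Mcm2, an S phase member, held only a CHR (at -70) in these bases. Of the members picked by p, Mcm2, Mcm3 and Cenpe thus did not show the split in these 120 bases.

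The CHR was held by 14 of 18 G2 and mitosis members with a promoter (77.8%) and by 2 of 14 G1/S and S members (14.3%, Mcm2 and Mcm7), against 19.2% of all 32851 promoters of the same length and 14.2% of those of tested genes. For the E2F-type motif the order was the other way, with 5 of 18 G2 and mitosis members (27.8%) and 9 of 14 G1/S and S members (64.3%), against 13.7% of all promoters and 24.8% of those of tested genes, a share close to that of G2 and mitosis members. NF-Y boxes were held by 16 of 18 G2 and mitosis members (88.9%) and by 9 of 14 G1/S and S members (64.3%), against 37.4% of all promoters and 38.8% of those of tested genes. Genes of the same processes that are no members had shares of the same order, with a CHR in 38 of 55 other mitosis genes (69.1%) and 7 of 40 other replication genes (17.5%), and an E2F-type motif in 34.5% and 55.0% of them. A match is a description of these letters and not evidence that a factor binds there.

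**Figure D1:**
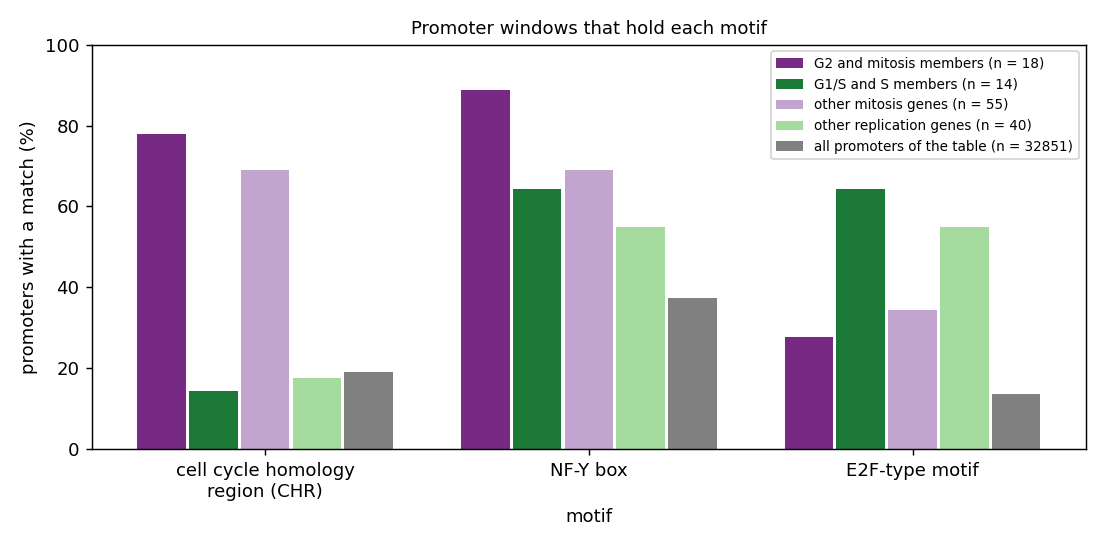
Share of promoter windows (250 bases before to 50 bases after the start, in percent) that hold each motif on either strand, for members by class, for other genes of mitosis and replication, and for all promoters of the table. The CHR was found in 77.8% of G2 and mitosis members and 14.3% of G1/S and S members, and the E2F-type motif in 27.8% and 64.3% of them.

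Several features of the libraries bear on every value below. The log2 ratio of KO-IgG replicate 2 to replicate 3 had a robust SD of 0.0614, and that of KO-ICB replicate 1 to replicate 2 had 0.0382, over the 437 genes above 300 TPM, against 0.232 to 0.684 for other pairs within a group, so each pair was averaged and counted as 1 sample, which leaves 4 KO and 6 CTRL samples. Whether each of these pairs came from separate tumours cannot be told from the values. The targeted gene was not lower under its label, since Trex1 transcript stood at 56.0 to 72.2 TPM in the 6 libraries labelled TREX1 KO and at 32.8 to 46.2 TPM in the 6 CTRL libraries, and KO below means libraries labelled TREX1 KO. KO-IgG replicate 1 stood apart from the other libraries, with 0.661 TPM of the epithelial gene Epcam against 87.1 to 1239 TPM in the other 11 and Esrp1 listed at 0. It was the lowest library for 12 of 12 markers of 4T1 epithelium and the highest for 12 of 12 T cell and 7 of 7 macrophage markers. Summed T cell markers were at 85.7 to 92.4 TPM in KO-ICB, 88.9 to 209 TPM in KO-IgG, 41.9 to 69.9 TPM in CTRL-ICB and 39.1 to 51.3 TPM in CTRL-IgG. Summed macrophage markers ranged over 1853 to 2065 TPM in KO-ICB, 1992 to 4270 TPM in KO-IgG, 882 to 2699 TPM in CTRL-ICB and 1336 to 2541 TPM in CTRL-IgG. Summed epithelial markers ranged over 5607 to 6078 TPM in KO-ICB, 1489 to 5511 TPM in KO-IgG, 3533 to 4021 TPM in CTRL-ICB and 2131 to 5405 TPM in CTRL-IgG. Neutrophil markers summed to 32.8 to 116 TPM in KO libraries and 182 to 904 TPM in CTRL libraries. Results are therefore given with and without KO-IgG replicate 1, and the part of these other cells in the members' values was not tested.

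All members were expressed in every library. Among G2 and mitosis members the mean over the 12 libraries ran from 8.89 TPM for Cenpf, a kinetochore protein, to 188 TPM for Cdk1, the kinase that drives entry into mitosis, and among G1/S and S members from 5.17 TPM for Ccne1, cyclin E1, to 219 TPM for Pcna, the sliding clamp of DNA polymerase. Together the members took 0.173% to 0.185% of all TPM in KO-ICB libraries and 0.206% to 0.312% in KO-IgG, against 0.152% to 0.223% in CTRL-ICB and 0.203% to 0.240% in CTRL-IgG. The highest library exceeded the lowest by a median of 2.40-fold for G2 and mitosis members (1.83-fold for Cdk1 to 3.60-fold for Kif23, a kinesin of cytokinesis) and of 2.02-fold for G1/S and S members (1.34-fold for Cdt1, a licensing factor, to 4.82-fold for Ccne2, cyclin E2).

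KO-IgG replicate 1 held the most of these transcripts. It was the highest of the 12 libraries for 32 of 40 members (20 of 23 G2 and mitosis, 12 of 17 G1/S and S), against 21.9% of all tested genes. Its TPM ratio to the averaged KO-IgG replicates 2 and 3 had a median of 1.63 over the 23 G2 and mitosis members, all above 1. Over the 17 G1/S and S members the median was 1.58, and 14 of them were above 1. Among members the ratio was largest for Ccne2 (3.90) and smallest for Cdt1 (0.94). All tested genes had a median of 1.18, with 8848 of 13886 above 1. That background ratio used TPM + 1, which pulls low genes toward 1, so the medians are not on the same scale. CTRL-ICB replicate 2 was the lowest library for 17 of 40 members, against 6.69% of tested genes, and KO-ICB replicate 3 for 11 members, against 9.96%.

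**Figure D2:**
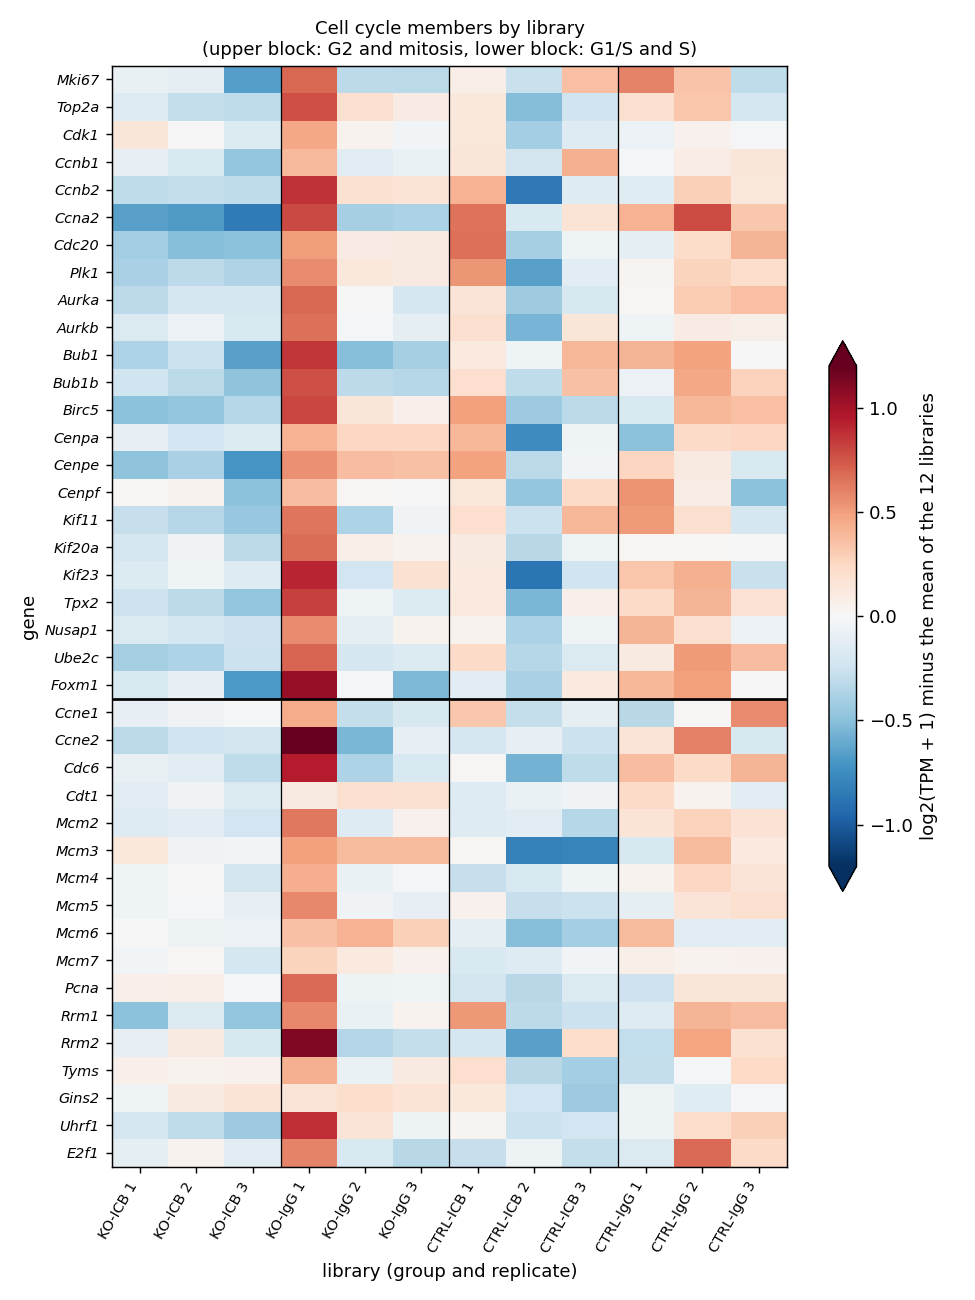
Level of each of the 40 members in each of the 12 libraries, as log2(TPM + 1) minus the mean of that gene over the 12 libraries (colour, clipped at the ends of the scale), with G2 and mitosis members in the upper block and G1/S and S members in the lower one. KO-IgG replicate 1 is the highest library for 32 of 40 members and CTRL-ICB replicate 2 the lowest for 17.

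A class level, the mean over the members of a class of log2(TPM + 1) minus each gene's mean over the 10 samples, summarised each library. The level of G2 and mitosis members was -0.28, -0.28 and -0.44 in KO-ICB replicates 1, 2 and 3, and 0.64, -0.081 and -0.09 in KO-IgG, against 0.21, -0.46 and 0.004 in CTRL-ICB and 0.11, 0.26 and 0.028 in CTRL-IgG. All 3 KO-ICB libraries lay below all libraries but CTRL-ICB replicate 2, and KO-IgG replicate 1 lay above all others. The level of G1/S and S members was -0.11, -0.057 and -0.16 in KO-ICB, and 0.58, -0.055 and -0.014 in KO-IgG, against -0.039, -0.32 and -0.26 in CTRL-ICB and -0.041, 0.20 and 0.15 in CTRL-IgG. On the S phase side the 2 lowest libraries were CTRL-ICB replicates 2 and 3, not the KO-ICB ones. The difference of the classes, G2 and mitosis minus G1/S and S, was -0.17, -0.22 and -0.28 in KO-ICB, and 0.06, -0.025 and -0.077 in KO-IgG, against 0.25, -0.14 and 0.26 in CTRL-ICB and 0.15, 0.061 and -0.12 in CTRL-IgG. It averaged -0.12 ± 0.15 in KO and 0.078 ± 0.18 in CTRL (SD, n = 4 and 6 samples), so the groups' means differed by about their spread and their ranges overlapped. The same difference for genes that are no members, other mitosis minus other replication genes, averaged -0.08 ± 0.11 in KO and 0.054 ± 0.16 in CTRL. No test was made of these levels, because the members were chosen with earlier results of these data known.

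**Figure D3:**
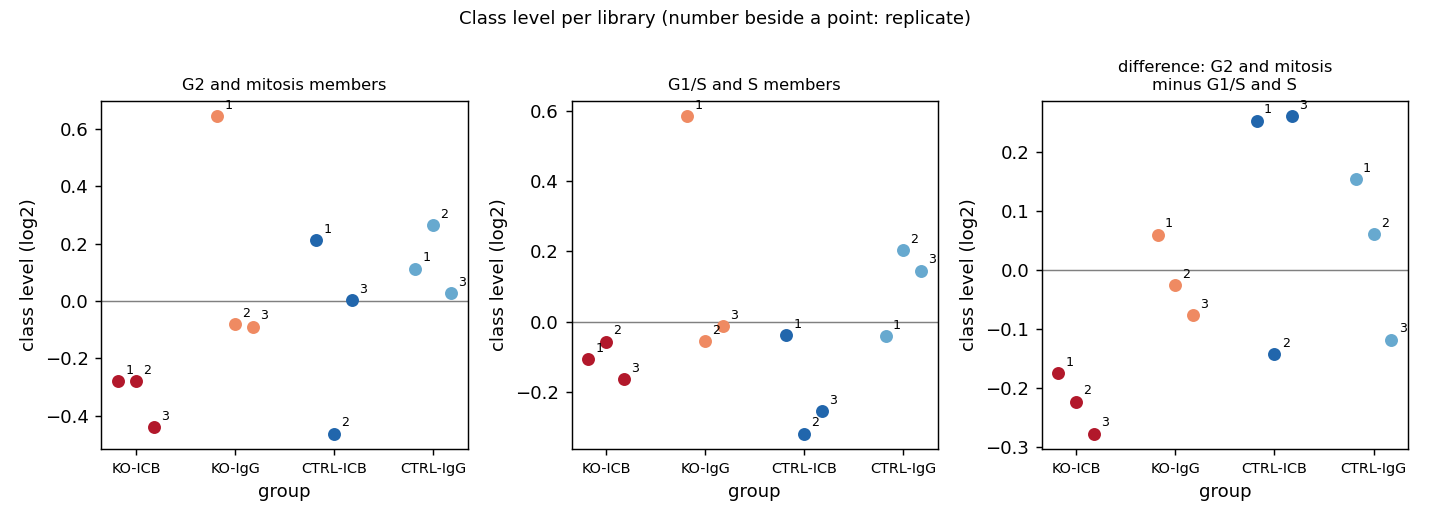
Class level per library (log2 units, y axis) for G2 and mitosis members, for G1/S and S members and for their difference, by group (x axis), with the replicate number beside each point. KO-IgG replicate 1 is the highest for both classes, and the difference lies between -0.28 and -0.17 in the 3 KO-ICB libraries.

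Averaged over both treatments, no member differed between KO and CTRL tumours at a limma adjusted p under 0.05, a threshold that 15 of 13886 tested genes passed (0.108%). At an unadjusted p under 0.05, 1 member of 40 was lower in KO and none was higher, against 11.5% of all tested genes, so the members' share lay below the background. The median log2 fold change was -0.052 over G2 and mitosis members (15 of 23 negative) and 0.066 over G1/S and S members (2 of 17 negative), and -0.028 over all tested genes. Without KO-IgG replicate 1 the medians were -0.20, -0.076 and -0.089, and 20 of 23 G2 and mitosis members and 10 of 17 G1/S and S members were negative. That setting leaves 1 KO-IgG sample, and wherever it is used limma takes that sample's spread from the groups with more samples, on the assumption that it is equal. Without the averaged KO-IgG replicates 2 and 3, 33 of 40 members were positive, with medians of 0.14 and 0.27 beside 0.030, so the sign of the G2 and mitosis median turned with the KO-IgG sample left out.

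Ccna2, cyclin A2, the partner of CDK2 in S phase and of CDK1 in G2 (GRCm38 chr3:36564865-36572150, minus strand, GENCODE M21), had the smallest p of the mitotic class. In the 3 KO-ICB libraries Ccna2 stood at 28.4, 27.8 and 24.7 TPM and in KO-IgG at 79.3, 34.1 and 34.6 TPM, against 71.6, 39.6 and 50.9 TPM in CTRL-ICB and 60.8, 78.5 and 57.0 TPM in CTRL-IgG. The other 5 KO libraries lay below all 6 CTRL libraries, and KO-IgG replicate 1 lay above them all. Its log2 fold change of -0.64 ± 0.25 (SE) did not pass, at a limma adjusted p of 0.371. Without KO-IgG replicate 1 the mean was 29.1 ± 4.90 TPM in KO and 59.8 ± 14.0 TPM in CTRL (SD, n = 3 and 6), a log2 fold change of -0.93 ± 0.21 with a limma adjusted p of 0.0679, and an exact two-sided permutation p of 0.0238, where 84 splits allow no less than 0.0119. Over 428 bases its exons overlap those of Exosc9, an exosome subunit, on the opposite strand, and the use of strand in counting was not stated. Exosc9 ranged over 18.6 to 23.2 TPM in the same 5 KO libraries, with 39.5 TPM in KO-IgG replicate 1, and over 30.3 to 37.0 TPM in CTRL. If strand was not used, reads of Ccna2 and Exosc9 cannot be told apart in that overlap.

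Bub1, a kinase of the spindle assembly checkpoint (GRCm38 chr2:127801122-127831865, minus strand), followed. The TPM of Bub1 were 9.10, 9.91 and 7.31 in KO-ICB and 22.6, 8.16 and 8.88 in KO-IgG, against 13.1, 11.6 and 16.2 in CTRL-ICB and 16.3, 17.3 and 12.1 in CTRL-IgG. The 5 KO libraries other than KO-IgG replicate 1 were again the lowest of the 12. Its log2 fold change was -0.37 ± 0.27 with a limma adjusted p of 0.644, and without KO-IgG replicate 1 it was -0.69 ± 0.21 with a limma adjusted p of 0.132, for means of 8.45 ± 1.10 TPM in KO and 14.4 ± 2.45 TPM in CTRL (exact two-sided permutation p = 0.0238, n = 3 and 6). Ccna2 and Bub1 were the 2 of 40 members whose KO samples all lay below all CTRL samples without that library, against 8.58% of tested genes, and no member lay above, against 6.49%. With all 10 samples no member was separated either way, against 1.52% of tested genes below and 2.05% above. Without that library, 3 of 40 members (Ccna2, Bub1 and Bub1b, the checkpoint protein BubR1) were lower at an unadjusted p under 0.05, against 18.8% of tested genes, none was called at an adjusted one, against 1.97%, and the same 3 had an exact permutation p under 0.05, against 19.1%. With the averaged libraries entered singly and that library left out, an alternative added after the data were seen, Ccna2 (adjusted p = 0.00415) and Bub1 (adjusted p = 0.0149) were called by limma, 2 of 40 against 16.3% of tested genes. That fit enters the libraries of each near-identical pair as separate samples. If a pair is 1 tumour, the spread is understated and these adjusted p are too small.

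Other mitotic kinases and regulators overlapped between KO and CTRL. Cdk1 was among the members that varied least. Cdk1 reached 206, 187 and 166 TPM in KO-ICB and 257, 192 and 182 TPM in KO-IgG, against 206, 141 and 168 TPM in CTRL-ICB and 178, 194 and 185 TPM in CTRL-IgG. KO-IgG replicate 1 was the highest library and CTRL-ICB replicate 2 the lowest. Ccnb1, cyclin B1, is its partner at mitotic entry. Ccnb1 stood at 30.0, 28.2 and 23.1 TPM in KO-ICB replicates 1, 2 and 3 and 42.5, 29.3 and 30.5 TPM in KO-IgG, against 35.8, 27.4 and 43.4 TPM in CTRL-ICB and 31.8, 34.3 and 35.7 TPM in CTRL-IgG. The 3 KO-ICB libraries and CTRL-ICB replicate 2 were among the 5 lowest, and CTRL-ICB replicate 3 was the highest. Plk1, the kinase that drives centrosome maturation and mitotic exit, split the CTRL-ICB tumours. In the 3 KO-ICB libraries Plk1 stood at 20.9, 22.2 and 21.3 TPM and in KO-IgG at 41.4, 30.4 and 30.0 TPM, against 40.4, 17.3 and 25.3 TPM in CTRL-ICB and 28.4, 33.5 and 32.3 TPM in CTRL-IgG. CTRL-ICB replicate 1 was close to KO-IgG replicate 1, while CTRL-ICB replicate 2 was the lowest of all. Aurkb, the kinase of the chromosomal passenger complex, had the same low library. The TPM of Aurkb were 29.4, 31.5 and 29.2 in KO-ICB and 53.3, 32.8 and 30.6 in KO-IgG, against 38.1, 22.2 and 36.9 in CTRL-ICB and 32.0, 35.7 and 35.0 in CTRL-IgG. All KO-ICB libraries of Aurkb lay below all CTRL-IgG libraries, but narrowly (31.5 against 32.0 TPM at the nearest). These groups differ in both genotype and treatment, and the share of tested genes separated this way was not counted. Mki67, the proliferation marker that coats mitotic chromosomes, did not order the groups. Mki67 reached 19.7, 19.2 and 12.9 TPM in KO-ICB and 34.5, 16.7 and 16.6 TPM in KO-IgG, against 22.3, 17.2 and 27.2 TPM in CTRL-ICB and 32.3, 26.9 and 16.8 TPM in CTRL-IgG. The lowest was KO-ICB replicate 3 and the highest KO-IgG replicate 1, with CTRL-IgG replicates 1 and 3 far apart. Top2a is the topoisomerase that untangles sister chromatids. Top2a stood at 134, 122 and 121 TPM in KO-ICB replicates 1, 2 and 3 and 255, 171 and 160.3 TPM in KO-IgG, against 163, 104 and 126 TPM in CTRL-ICB and 170.2, 188 and 129 TPM in CTRL-IgG. All 3 KO-ICB libraries lay below all 3 KO-IgG libraries, with a log2 fold change of -0.72 ± 0.29 that did not pass (limma adjusted p = 0.998).

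On the S phase side, all 6 subunits of the MCM helicase, Mcm2 to Mcm7, had a positive log2 fold change in KO (0.046 to 0.44), but without KO-IgG replicate 1 only 3 of 6 were positive. Mcm3 had the smallest p. In the 3 KO-ICB libraries Mcm3 stood at 85.6, 76.2 and 76.8 TPM and in KO-IgG at 111, 102 and 103 TPM, against 79.3, 44.2 and 44.6 TPM in CTRL-ICB and 68.7, 103 and 85.0 TPM in CTRL-IgG. CTRL-ICB replicates 2 and 3 were far below all others. Its log2 fold change was 0.44 ± 0.20 with a limma adjusted p of 0.435. Mcm6 came next. The TPM of Mcm6 were 86.8, 83.2 and 82.8 in KO-ICB and 111, 116 and 107 in KO-IgG, against 80.6, 60.6 and 65.4 in CTRL-ICB and 113, 79.8 and 79.2 in CTRL-IgG. The 3 KO-IgG libraries and CTRL-IgG replicate 1 were the 4 highest, and the log2 fold change was 0.30 ± 0.15 (limma adjusted p = 0.486). Gins2, a subunit of the GINS complex that completes the helicase, averaged 43.9 ± 2.14 TPM in KO and 36.7 ± 4.97 TPM in CTRL (SD, n = 4 and 6) and was the 1 member of 40 with an exact two-sided permutation p under 0.05 over the 10 samples (p = 0.0286, 210 splits), against 12% of tested genes. Its exons overlap those of Gse1 on the opposite strand over 2758 bases, and Gse1 stood at 6.39 to 12 TPM in KO and 3.96 to 17.6 TPM in CTRL.

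Mcm5, Pcna and Rrm2 were each highest in KO-IgG replicate 1. Mcm5 reached 52.1, 53.0 and 50.2 TPM in KO-ICB and 80.7, 52.1 and 50.2 TPM in KO-IgG, against 55.7, 44.4 and 44.8 TPM in CTRL-ICB and 49.4, 60.2 and 61.8 TPM in CTRL-IgG. Mcm5 was between 44.4 and 61.8 TPM in every library but that one. Pcna stood at 225, 227 and 213 TPM in KO-ICB replicates 1, 2 and 3 and 346, 206 and 208 TPM in KO-IgG, against 184, 171 and 191 TPM in CTRL-ICB and 181, 239 and 238 TPM in CTRL-IgG. All 3 KO-ICB libraries of Pcna lay above all 3 CTRL-ICB libraries, whereas CTRL-IgG spanned the whole range of the other KO libraries. In the 3 KO-ICB libraries Rrm2 stood at 40.6, 46.9 and 37.9 TPM and in KO-IgG at 95.2, 33.9 and 35.4 TPM, against 37.6, 27.3 and 50.6 TPM in CTRL-ICB and 35.2, 60.7 and 49.6 TPM in CTRL-IgG. Rrm2, the inducible subunit of ribonucleotide reductase, was highest in KO-IgG replicate 1, with CTRL-IgG replicate 2 next.

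Cyclins E1 and E2, the partners of CDK2 at the G1/S switch, had the lowest mean levels of all members. The TPM of Ccne1 were 4.65, 4.88 and 4.98 in KO-ICB and 7.21, 3.95 and 4.28 in KO-IgG, against 6.58, 3.97 and 4.63 in CTRL-ICB and 3.80, 5.08 and 7.97 in CTRL-IgG. Cyclin E1 overlapped among all groups. Ccne2 reached 4.00, 4.32 and 4.39 TPM in KO-ICB and 15.9, 3.29 and 4.84 TPM in KO-IgG, against 4.44, 4.85 and 4.25 TPM in CTRL-ICB and 5.97, 8.54 and 4.50 TPM in CTRL-IgG. Cyclin E2 was set apart by KO-IgG replicate 1 alone. E2f1 stood at 17.6, 19.7 and 17.2 TPM in KO-ICB replicates 1, 2 and 3 and 29.3, 16.6 and 14.9 TPM in KO-IgG, against 15.5, 18.1 and 15.4 TPM in CTRL-ICB and 16.7, 31.0 and 22.5 TPM in CTRL-IgG. E2F1, the factor that drives S phase genes, was highest in CTRL-IgG replicate 2, with KO-IgG replicate 1 next.

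**Figure D4:**
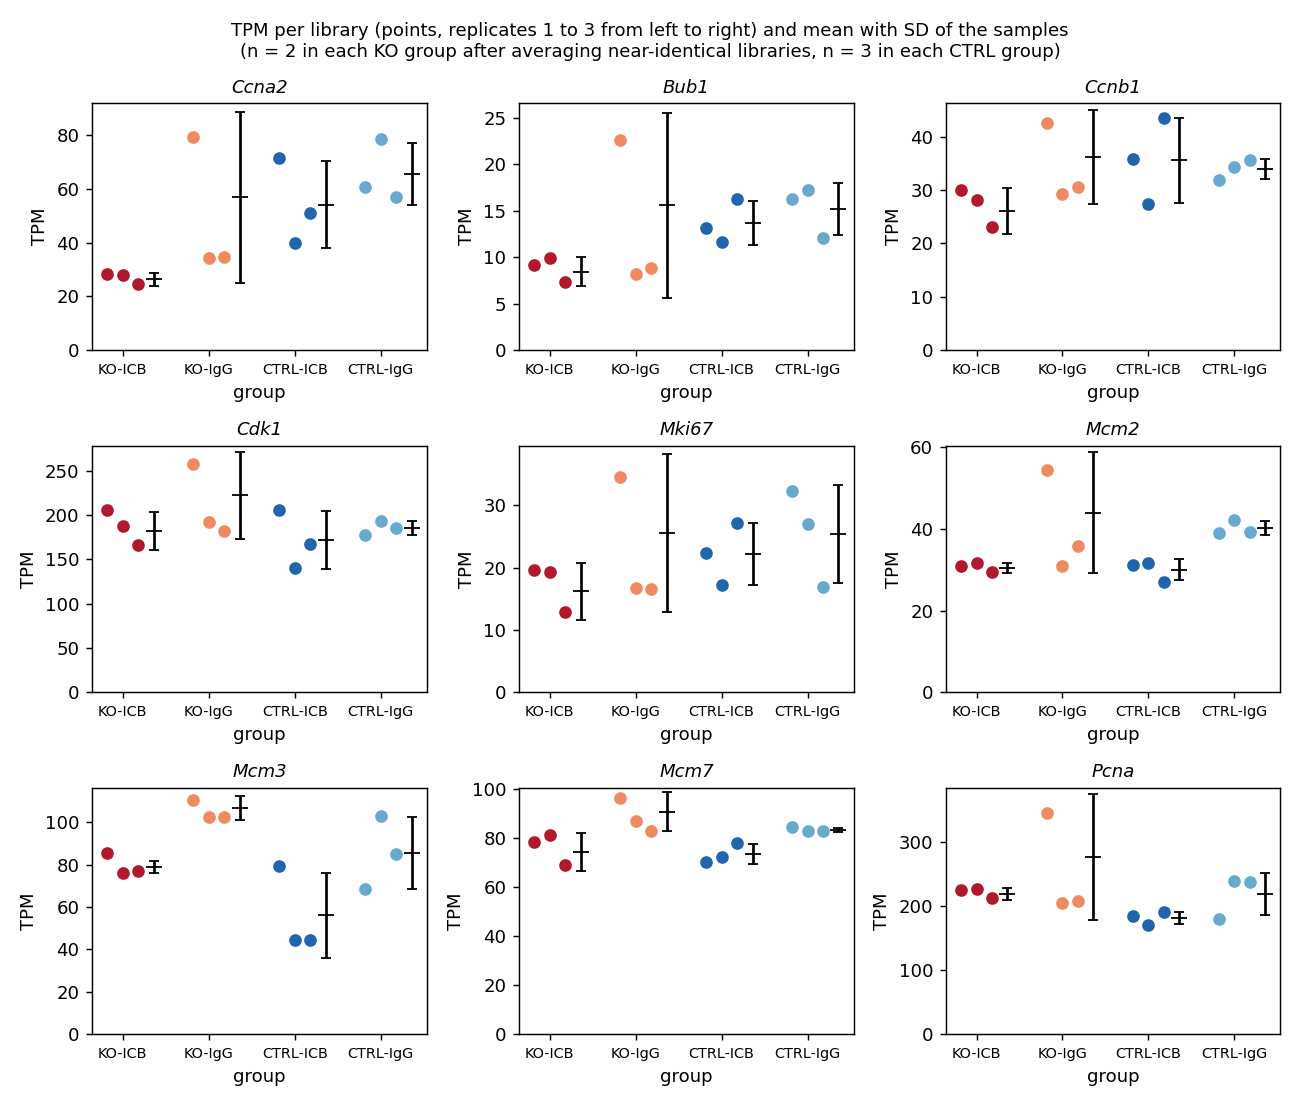
TPM of 9 members in each library by group, with the mean and SD of the samples in each group beside the points (n = 2 samples in each KO group after averaging near-identical libraries, n = 3 in each CTRL group). Ccna2 and Bub1 are lower in 5 KO libraries than in all 6 CTRL libraries, with KO-IgG replicate 1 as the exception, and Mcm7 is lower in all 6 ICB libraries than in all 6 IgG libraries.

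Within each treatment, KO and CTRL were compared with 2 and 3 samples. Under checkpoint antibodies 21 of 23 G2 and mitosis members and 5 of 17 G1/S and S members had a negative log2 fold change, against 53.4% of all tested genes, with medians of -0.26 and 0.076 beside -0.030 over all tested genes. With array weights 16 of 40 members were negative and the sign of the G2 and mitosis median turned (0.044). Without CTRL-ICB replicate 1, 21 of 40 were negative, with a median of -0.0090 over all members against -0.076 with all 10 samples. The pattern was stronger without CTRL-ICB replicate 2, with 31 of 40 negative and a median of -0.23. Without CTRL-ICB replicate 3, 25 of 40 were negative (median -0.066). Leaving out KO-ICB replicate 3 gave 24 of 40 (-0.039), and leaving out the averaged KO-ICB replicates 1 and 2 gave 30 of 40 (-0.10). No member passed an adjusted p of 0.05 in limma, which 0.0072% of tested genes passed, and 1 member passed at an unadjusted p, against 7.98%. That member was Ccna2, with a log2 fold change of -0.97 ± 0.36 (limma adjusted p = 0.549). Ccna2 was called (adjusted p = 0.0352) with the averaged libraries entered singly and KO-IgG replicate 1 left out, against 3.8% of tested genes. That fit enters near-identical libraries as separate samples, which may understate the spread. Cenpe, the kinesin that carries chromosomes to the spindle equator, was next in its class at -0.61 ± 0.29 (limma adjusted p = 0.642), and Mcm3 and Mcm6 led theirs at 0.54 ± 0.28 and 0.29 ± 0.22 (limma adjusted p = 0.686 and 0.790). With array weights Mcm3 was called (log2 fold change 0.74 ± 0.17, adjusted p = 0.0274), against 9.1% of tested genes. In addition, 6 members (Ccna2, Cdc20, Bub1, Cenpe, Kif11 and Rrm1) had both KO-ICB samples below all 3 CTRL-ICB samples and 2 (Mcm6 and Pcna) had them above, against 17% of tested genes in each direction. Read against that share, 6 of 40 and 2 of 40 are no result about the members.

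Under isotype antibodies the median log2 fold change of KO-IgG against CTRL-IgG was 0.13 over G2 and mitosis members and 0.18 over G1/S and S members, beside -0.029 over all tested genes, and it was -0.17, -0.15 and -0.15 without KO-IgG replicate 1. No member was called in limma, against 0% of tested genes, and none had an unadjusted p under 0.05, against 5.15%. The members with the smallest p were Kif20a, a kinesin of cytokinesis (0.35 ± 0.24), and Cenpe (0.39 ± 0.29) on the mitotic side, and Mcm6 (0.31 ± 0.22) and Pcna (0.30 ± 0.24) on the S phase side, each with a limma adjusted p of 0.998. Of the 40, 5 members (Cenpa, Cenpe, Kif20a, Mcm7 and Gins2) had both KO-IgG samples above all 3 CTRL-IgG samples, against 7.5% of tested genes. The KO samples of Cenpe thus lay above CTRL under isotype and below it under checkpoint antibodies. Such separations were seen in 7.5% and 17% of tested genes. Neither difference passed (limma adjusted p = 0.998 and 0.642), so a change of direction is not shown. In the 3 KO-ICB libraries Cenpe stood at 9.11, 9.76 and 7.66 TPM and in KO-IgG at 19.6, 17.3 and 17.0 TPM, against 18.7, 10.3 and 12.8 TPM in CTRL-ICB and 15.8, 14.2 and 11.4 TPM in CTRL-IgG. All 3 KO-ICB libraries lay below the other 9, and KO-IgG had the highest mean.

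Averaged over both genotypes, all 40 members had a negative log2 fold change for ICB against IgG, against 53.1% of tested genes, with medians of -0.44 over G2 and mitosis members and -0.35 over G1/S and S members beside -0.019 over all tested genes. No gene was called at an adjusted p under 0.05 (0% of tested genes). At an unadjusted p under 0.05, 14 members were lower in ICB (9 G2 and mitosis, 5 G1/S and S) and none was higher, against 1.84% of tested genes lower and 3.18% in either direction. The members vary together between libraries, so 40 signs are not 40 independent observations. Without KO-IgG replicate 1, 39 of 40 were negative, and the medians were -0.27 and -0.19 beside 0.043 over all tested genes. The 14 members lower at an unadjusted p under 0.05 stood beside 256 of all tested genes. Both counts moved when 1 CTRL sample was left out. Leaving out CTRL-ICB replicate 1, 2 or 3 gave 17, 3 and 6 members beside 317, 143 and 225 tested genes. For CTRL-IgG replicates 1, 2 and 3 these were 13, 4 and 11 beside 283, 160 and 307. Leaving out any KO sample leaves 1 in its group, so such counts are not compared there. Over all members the median was -0.405 with 10 samples. It was -0.372 without KO-ICB replicate 3 (beside 0.03) and -0.445 without the averaged KO-ICB replicates 1 and 2 (beside -0.065). Without the averaged KO-IgG replicates 2 and 3 it was -0.566 (beside -0.08). Without the CTRL libraries with the most skin transcript, CTRL-ICB replicate 3 and CTRL-IgG replicate 3, the counts were 6 and 313. Summed skin markers stood at 8325 TPM in CTRL-ICB replicate 3 and 4829 TPM in CTRL-IgG replicate 3, and at 3.88 to 421 TPM in the other libraries.

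Uhrf1, which brings DNA methylation to newly made DNA, had the smallest p in this comparison. The TPM of Uhrf1 were 33.7, 31.4 and 28.6 in KO-ICB and 72.3, 43.6 and 37.2 in KO-IgG, against 39.9, 32.6 and 33.1 in CTRL-ICB and 37.4, 45.2 and 47.7 in CTRL-IgG. CTRL-ICB replicate 1 overlapped the IgG range and KO-ICB libraries lay at or near the bottom. Its log2 fold change was -0.55 ± 0.18 with a limma adjusted p of 0.994. Tpx2, which starts spindle assembly on chromatin, and Top2a led the mitotic class at -0.56 ± 0.22 and -0.52 ± 0.19, with the same adjusted p of 0.994. Tpx2 reached 20.7, 19.7 and 17.5 TPM in KO-ICB and 44.6, 23.9 and 21.9 TPM in KO-IgG, against 26.9, 16.6 and 25.8 TPM in CTRL-ICB and 29.2, 33.1 and 28.0 TPM in CTRL-IgG. The lowest of the 12 was CTRL-ICB replicate 2, and the ICB and IgG ranges of Tpx2 overlapped.

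Mcm2 and Mcm7 were the 2 of 40 members whose 5 ICB samples all lay below all 5 IgG samples, against 0.266% of tested genes, and they were the same 2 without KO-IgG replicate 1, against 0.324%. Mcm7 stood at 78.2, 81.0 and 68.8 TPM in KO-ICB replicates 1, 2 and 3 and 96.3, 87.0 and 82.9 TPM in KO-IgG, against 70.2, 72.0 and 78.1 TPM in CTRL-ICB and 84.2, 82.7 and 82.7 TPM in CTRL-IgG. The 6 ICB libraries ran from 68.8 to 81.0 TPM and the 6 IgG libraries from 82.7 to 96.3 TPM. In the 3 KO-ICB libraries Mcm2 stood at 31.0, 31.6 and 29.5 TPM and in KO-IgG at 54.5, 31.0 and 35.9 TPM, against 31.2, 31.8 and 27.1 TPM in CTRL-ICB and 39.0, 42.2 and 39.4 TPM in CTRL-IgG. For Mcm2, KO-IgG replicate 2 (31.0 TPM) lay within the ICB libraries, and its averaged sample above them. The log2 fold change of Mcm2 was -0.45 ± 0.16 (limma adjusted p = 0.994). Exons of Mcm7 overlap those of Cops6 on the opposite strand, and Cops6 stood at 95.1 to 125 TPM in ICB libraries and at 99.5 to 136 TPM in IgG libraries.

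The remaining 19 members are given by their ranges. On the mitotic side these were the kinase Aurka, the transcription factor Foxm1, cyclin B2 (Ccnb2), the checkpoint and anaphase regulators Bub1b, Cdc20, Ube2c and Birc5 (survivin), the centromere proteins Cenpa and Cenpf, the kinesins Kif11, Kif20a and Kif23, and the spindle protein Nusap1. Their log2 fold changes for KO against CTRL ran from -0.23 (Bub1b) to 0.24 (Kif23), with limma adjusted p of 0.761 to 1, and 8 of 13 were negative. On the S phase side these were the licensing factors Cdc6 and Cdt1, the helicase subunits Mcm4 and Gins2, and the nucleotide enzymes Rrm1 and Tyms, which ran from -0.15 (Rrm1) to 0.26 (Gins2), with limma adjusted p of 0.541 to 0.974. For ICB against IgG all 19 were negative, from -0.62 (Foxm1) to -0.25 (Cenpf) among the 13 mitotic members and from -0.58 (Cdc6) to -0.09 (Gins2) among the 6 others, each with a limma adjusted p of 0.994. Without KO-IgG replicate 1, 11 of 13 mitotic members were negative for KO against CTRL, from -0.51 (Bub1b) to 0.11 (Cenpa). Of the 6 others 3 were, from -0.30 (Rrm1) to 0.27 (Gins2). For ICB against IgG all 19 stayed negative without that library. The range was -0.40 (Birc5) to -0.10 (Bub1b) for mitotic members and -0.30 (Rrm1) to -0.06 (Tyms) for the others.

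ICB and IgG were then compared within each genotype. In KO tumours all 40 members were negative for KO-ICB against KO-IgG, against 52.3% of tested genes, with medians of -0.60 and -0.32 for G2 and mitosis and for G1/S and S members beside -0.021 for all tested genes. None was called (0% of tested genes) and 6 had an unadjusted p under 0.05, against 3.19%. They were led by Cenpe (-1.02 ± 0.32) and Ccna2 (-0.96 ± 0.39) in the mitotic class and Uhrf1 (-0.81 ± 0.29) in the S phase class, followed there by Rrm1 (-0.67 ± 0.34), each with a limma adjusted p of 0.998. In 24 members both KO-ICB samples lay below both KO-IgG samples, against 12.8% of tested genes. Without KO-IgG replicate 1, 32 of 40 were negative, with medians of -0.20 and -0.079 beside 0.097 for all tested genes. Over all members the median was -0.53 with all 10 samples. It was -0.47 without KO-ICB replicate 3, beside 0.073 for all tested genes. It was -0.61 without the averaged KO-ICB replicates 1 and 2, beside -0.12, and -0.92 without the averaged KO-IgG replicates 2 and 3, beside -0.14. Leaving out any KO sample leaves 1 in its group here, so counts at an unadjusted p are not compared between these settings. Markers of other tissue were also apart in this comparison. Fibroblast markers summed to 883 to 929 TPM in KO-ICB and 409 to 576 TPM in KO-IgG, skeletal muscle markers to 139 to 149.7 TPM in KO-ICB and 29.8 to 70.8 TPM in KO-IgG, and endothelial markers to 47.8 to 56.2 TPM in KO-ICB and 58.2 to 145 TPM in KO-IgG. Their part in the members' values was not tested.

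In CTRL tumours 39 of 40 members were negative for CTRL-ICB against CTRL-IgG, against 52.6% of tested genes, with medians of -0.16 and -0.30 beside -0.014. Without CTRL-ICB replicate 2, 26 of 40 were negative, with a median of 0.0060 over G2 and mitosis members and of -0.11 over all members. None was called (0%), 1 had an unadjusted p under 0.05, against 1.27%, and with array weights 26 members were lower at that threshold, beside 950 of the 13886 tested genes. Of the 40, 5 (Tpx2, Cdc6, Mcm2, Mcm4 and Mcm7) had all 3 CTRL-ICB samples below all 3 CTRL-IgG samples, against 3.51%. Mcm3 (-0.64 ± 0.25) and Mcm2 (-0.41 ± 0.20) led the S phase class and Ube2c, the ubiquitin-conjugating enzyme of the anaphase-promoting complex (-0.42 ± 0.25), and Kif23 (-0.50 ± 0.33) the mitotic one, each with a limma adjusted p of 1. In TPM, Ube2c averaged 116 ± 24.3 in CTRL-ICB and 155 ± 21.5 in CTRL-IgG (SD, n = 3 each), and 144 bases of its exons overlap Tnnc2, a muscle gene on the opposite strand that stood at 0 to 1.36 TPM in CTRL and reached 13.5 TPM in KO-ICB.

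The interaction asked whether the difference between ICB and IgG was itself different in KO. No member was called (0% of tested genes) and 1, Cenpe, had an unadjusted p under 0.05 (log2 interaction -1.0 ± 0.41, limma adjusted p = 0.999), against 1.41% of tested genes. All 23 G2 and mitosis members and 13 of 17 G1/S and S members had a negative interaction, against 50.6% of tested genes, with medians of -0.41 and -0.039 beside -0.0050 over all tested genes. Without KO-IgG replicate 1 the medians were -0.071 and 0.25 beside 0.11, and 12 of 23 G2 and mitosis members were negative, so this sign pattern rested on that library. With array weights 20 of 40 members were negative. Cdc20, the activator of the anaphase-promoting complex (-0.68 ± 0.43), was next in the mitotic class, and Uhrf1 (-0.51 ± 0.37) and Rrm1 (-0.44 ± 0.44) led the S phase class, each with a limma adjusted p of 0.999.

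**Figure D5:**
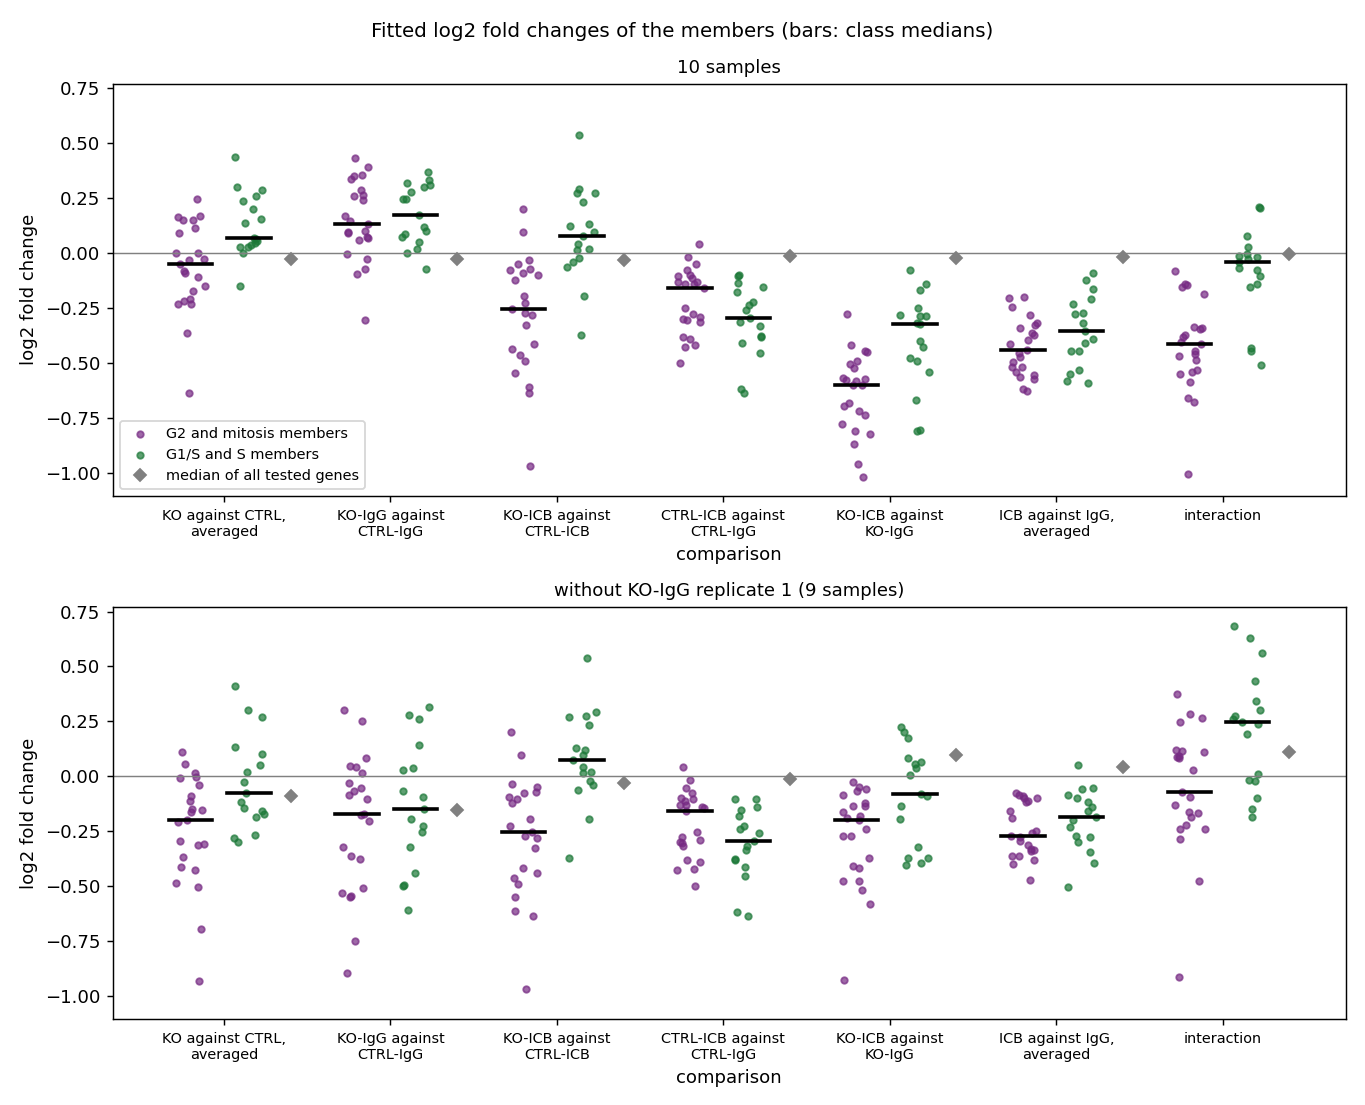
Fitted log2 fold change of each member (points, y axis) in the 7 comparisons (x axis), for G2 and mitosis and for G1/S and S members, with class medians as bars and the median of all tested genes as a diamond. With 10 samples all members are negative for ICB against IgG, and without KO-IgG replicate 1 (lower panel) 39 of 40 are, with medians nearer to 0.

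Ratios of members within a library were compared last. The pairs were chosen after the values were seen, and no test was made. Ccnb1 stood at 0.139 to 0.151 of Cdk1 in KO-ICB and 0.153 to 0.167 in KO-IgG, against 0.174 to 0.259 in CTRL-ICB and 0.177 to 0.192 in CTRL-IgG. All 6 KO libraries thus lay below all 6 CTRL libraries, KO-IgG replicate 1 included, by a narrow gap (0.167 against 0.174). The share of all gene pairs separated this way was not counted, so the separation does not show a genotype difference. Ccna2 stood at 0.138 to 0.190 of Cdk1 in the 5 other KO libraries and at 0.308 in KO-IgG replicate 1, against 0.282 to 0.406 in CTRL. Mcm3 stood at 2.03 to 3.30 times Mcm2 in KO and at 1.39 to 2.54 times in CTRL, which overlapped. Rrm2 over Rrm1 (0.815 to 1.5 in KO, 0.615 to 1.43 in CTRL) and Mki67 over Top2a (0.0977 to 0.158 in KO, 0.130 to 0.215 in CTRL) overlapped as well. So did the remaining ratios: Ccnb2 over Ccnb1, Ccna2 over Ccnb1, Bub1 over Cdk1 and Ccne2 over Ccne1. For Bub1 over Cdk1 and Ccna2 over Ccnb1 the overlap came from KO-IgG replicate 1 alone. Bub1 over Cdk1 stood at 0.0425 to 0.0530 in the 5 other KO libraries, against 0.0639 to 0.0967 in CTRL. Ccna2 over Ccnb1 stood at 0.947 to 1.16 in them, narrowly below the 1.17 to 2.29 in CTRL. The share of gene pairs separated without that library was not counted either. Named pseudogenes exist for Ccnb1, Ccnb2, Pcna and Tyms, and the labels do not say how reads were split between them and their parent genes.

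Other genes of the cycle, listed by function, were tested in the same fit. None of 50 other replication genes, 65 other mitosis genes and 42 tested G1 and CDK regulators was called in any of the 7 comparisons over the 10 samples. For KO against CTRL the medians were 0.12, -0.026 and -0.029, and the smallest p in each list belonged to Rnaseh2a, a subunit of the nuclease that removes RNA from DNA (0.61 ± 0.21, limma adjusted p = 0.313), Spc24, a kinetochore protein (0.80 ± 0.24, 0.238), and Ccnd2, cyclin D2 (1.04 ± 0.23, 0.151). Ccnd2 stood at 26.5 to 36.6 TPM in KO libraries and 9.56 to 22.6 TPM in CTRL libraries, which did not overlap. Over the 10 samples, Gins4 (1 of 50), Spc24 (1 of 65) and Ccnd2 and Lin37 (2 of 42) lay above CTRL, against 2.05% of tested genes. Cdkn2b (1 of 42) lay below, against 1.52%, so these separations are near the background. Over all 12 libraries limma called Ccnd2 (adjusted p = 0.0170) and Myc, a driver of growth and G1 progression (adjusted p = 0.0463), against 3.23% of tested genes and none of the 40 members. Without KO-IgG replicate 1 it called Rnaseh2a (0.87 ± 0.17, adjusted p = 0.0456), which ranged over 86.1 to 99.7 TPM in the 5 remaining KO libraries, with 46.0 TPM in KO-IgG replicate 1, and over 41.9 to 59.7 TPM in CTRL. Entered singly without that library, 3 other replication genes (1 lower), 8 other mitosis genes (7 lower) and 8 G1 and CDK regulators (5 lower) were called, against 16.3% of tested genes. Both this fit and the fit over all 12 libraries enter near-identical libraries as separate samples, which may understate the spread. For ICB against IgG the medians of the 3 lists were -0.38, -0.40 and -0.10, with 47 of 50, 65 of 65 and 30 of 42 negative, and the smallest p belonged to Rfc2, a clamp loader subunit (-0.42 ± 0.14), Ncapd2, a condensin subunit (-0.77 ± 0.21), and Pkmyt1, an inhibitory kinase of CDK1 (-0.45 ± 0.17), each with a limma adjusted p of 0.994. Rfc2 stood at 54.8 to 68.4 TPM in the 6 ICB libraries and 71.6 to 107 TPM in the 6 IgG libraries, which did not overlap. Over the 10 samples, Rfc2 and Rfc4 (2 of 50), none of 65 other mitosis genes and Pkmyt1 (1 of 42) lay lower in ICB without overlap, against 0.266% of tested genes. By single library Pkmyt1 overlapped, with 16.25 TPM in KO-ICB replicate 1 and 16.16 TPM in CTRL-IgG replicate 1.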

How the data were processed

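RNA-seq gave 12 libraries, labelled as different 4T1 tumours, and the deposited table holds 1 TPM value per gene and library. The tools named in the submitters' processing notes are kallisto and the build GRCm38. The version, transcript set, summing to symbols and strand setting were not given in the sources used here. Per the labels, RNA was isolated with a column kit and polyadenylated RNA was sequenced. TPM as the authors deposited them keep no read depth, so the depth is unknown and no counting interval can be given.

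Values were tested as log2(TPM + 1), a scale that understates the change of low genes, for the 13886 genes that reached 1 TPM in 3 or more libraries. limma 3.58.1 (R 4.3.3) was fitted with 4 group means, an intensity trend and robust variances, with Benjamini-Hochberg adjustment over all tested genes and a threshold of 0.05, and was tested on simulated data. Libraries of a group whose robust SD was under 0.1 were averaged, giving 10 samples. The labels name different tumours, but each near-identical pair may be 1 tumour or library, and p-values measure the spread between the samples of a group. Exact two-sided permutation tests over samples were run per member, and 7 comparisons were made. Members and lists were chosen with earlier results of these data known. Genes named are 13 fixed members shown in full, in each comparison the 2 of each class with the smallest p where none was called, members whose samples did not overlap between KO and CTRL, and the gene with the smallest p in each further list. Members outside this rule were named for extreme or non-overlapping values, after these were seen. Alternatives were other pseudocounts, filters and scalings, array weights, all 12 libraries, a replicate block and each sample left out. Gene positions are from GENCODE M21 (GRCm38) and promoters from RefSeq (GRCm38.p6), and a gene with several promoters was counted by the first one listed.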

Additional observations from a re-analysis of the deposited data

Results flagged for a closer look

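Among the 4 KO samples, KO-IgG replicate 1 was far above the rest for 14 members. The gap to the next sample, as a fraction of the range of the group, was 0.873 for Aurka, 0.895 for Aurkb, 0.857 for Bub1, 0.892 for Bub1b, 0.832 for Kif11, 0.902 for Kif23 and 0.867 for Ube2c on the mitotic side. It was 0.973 for Ccne2, 0.899 for Cdc6, 0.84 for Mcm2, 0.923 for Mcm5, 0.864 for Pcna, 0.85 for Rrm2 and 0.921 for Tyms on the S phase side. This is the library with 0.661 TPM of Epcam and the highest T cell and macrophage marker sums, whose part in these values was not tested.

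Among the 6 CTRL samples, CTRL-ICB replicate 2 was far below the others in the class level of G2 and mitosis members, with a gap of 0.642 of the range. Chance alone would flag about 1 in 20 independent groups, and 15 of 86 were flagged here. Of these flags, 14 were the same library, KO-IgG replicate 1, and the members vary together. The 86 groups are thus not independent, and the count cannot be set against chance.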

How the results depend on the processing

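No member was called in 155 of 158 alternative fits over the 7 comparisons. With the averaged libraries entered singly and KO-IgG replicate 1 left out, limma called 2 members for KO against CTRL and 1 for KO-ICB against CTRL-ICB, and array weights called 1 in that comparison. Entered singly, near-identical libraries count as separate samples, which may understate the spread. The cause of these calls was not tested. Class medians moved by less than the spread between samples in 310 of 330 alternatives. That pooled SD (0.212 for G1/S and S, 0.301 for G2 and mitosis members) exceeds several of the medians, so this count does not show stable signs. For KO-ICB against CTRL-ICB a G2 and mitosis median of -0.255 that turned to 0.044 with array weights still counted as kept. Leaving out 1 sample at a time, the KO-IgG against CTRL-IgG median ran from -0.17 to 0.48 for G2 and mitosis members and from -0.15 to 0.39 for G1/S and S members, and that of Pcna from -0.07 (without KO-IgG replicate 1) to 0.67. Entered singly without that library, these were -0.18 (G2 and mitosis), -0.15 (G1/S and S) and -0.07 (Pcna). For KO-ICB against KO-IgG the leave-one-out range was -1.03 to -0.20 for G2 and mitosis members, -0.64 to -0.079 for G1/S and S members and -0.38 to -0.12 for their difference, and entered singly without that library the values were -0.16, -0.046 and -0.11. For the interaction the leave-one-out range was -0.77 to -0.071 for G2 and mitosis and -0.38 to 0.25 for G1/S and S members, and entered singly it was -0.041 and 0.27. For CTRL-ICB against CTRL-IgG the class difference ran from -0.052 to 0.22 leaving out 1 sample at a time. Array weights gave -0.55 for the G2 and mitosis median and -0.15 for the class difference there, -0.12 for the class difference of KO-ICB against CTRL-ICB, and -0.055 and -0.11 for the interaction's G2 and mitosis median and class difference. Without the 2 CTRL libraries with the most skin transcript the class difference was -0.038 for CTRL-ICB against CTRL-IgG and -0.20 for the interaction.

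Replicate numbers gave no sign of pairing the samples. Same-numbered libraries of different groups had deviations correlated between -0.364 and 0.27, and 5 of 18 such pairs were above 0.1. For differently numbered libraries the range was -0.457 to 0.42, with 9 of 36 pairs above 0.1. With a replicate block over all 12 libraries 0 members were called in each comparison, and calls over all genes for KO against CTRL numbered 259, against 449 without the block. TPM keep no depth, so what depth limits could not be assessed, and with 2 to 3 samples a group a p that misses the threshold does not show equal levels.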
